A study of Homo sapiens with 6 samples.

Results

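T (brachyury), EOMES, MIXL1, SOX17, GATA4, GATA6 and HAND1 encode transcription factors that direct cells of the early embryo to mesoderm or endoderm. Their chromatin was read in neural progenitor cells, which do not follow those fates. The 7 genes were represented by 7 fixed windows on genome build hg19, and a member was any deposited peak overlapping one of them. This gave 183 of the 142800 peaks of 4 lists. The windows held 20 of 46793 H3K4me3 peaks in Boost-Chir against 18 of 44022 in Low-Chir, and 80 of 26260 H3K27me3 peaks in Boost-Chir against 65 of 25725 in Low-Chir.

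The cells came from the established embryonic stem cell line H9 and were at day 11 of a protocol that makes midbrain dopamine neurons. Both cultures began in SHH, the BMP and TGF-beta pathway inhibitors LDN and SB431542, a ROCK inhibitor and 0.7 µM CHIR99021. CHIR99021 inhibits the kinase GSK3 and so activates canonical WNT signalling. Boost-Chir cultures received 7.5 µM CHIR99021 from day 4 to day 10. Low-Chir cultures are labelled only as low in the compound, and their concentration in those days is not stated. LDN, SB431542 and SHH were withdrawn during that period, and from day 10 the medium held 3 µM CHIR99021 with neurotrophic factors. Chromatin immunoprecipitation with sequencing (ChIP-seq) was done for each mark in 1 library per condition, from 1 cell line. No difference below therefore has a replicate check, and no test between conditions was possible.

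H3K4me3 is a histone mark of active and poised gene starts. H3K27me3 is laid down by Polycomb repressive complex 2 and covers genes of lineages that a cell has not taken. The genes of mesoderm and endoderm are textbook examples of bivalent genes in embryonic stem cells, where both marks lie at the same start. T, a T-box factor of the primitive streak and notochord, is in the mouse a direct target of WNT signalling through TCF/LEF factors. EOMES, another T-box factor, and MIXL1, a paired-type homeobox factor, also act in the primitive streak. SOX17 (HMG box) and the zinc-finger factors GATA4 and GATA6 act in endoderm, and both GATA factors act in the heart as well. HAND1, a basic helix-loop-helix factor, acts in lateral mesoderm, heart and extraembryonic tissue.

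The starts of 3 of the genes are shown because they hold letters read by TCF/LEF factors, the DNA-binding partners of beta-catenin in the pathway that CHIR99021 activates. The 250 bases before each start were taken from RefSeq on GRCh38.p14, a different build from that of the peaks, by gene symbol and not by peak position. Capitals mark CTTTGAT or CTTTGAA, searched on both strands, which differ in their last base alone. RefSeq lists T as TBXT with 2 starts, and the first of them is shown although it holds no match.
T start 1, chr6:166168656-166168905, minus strand: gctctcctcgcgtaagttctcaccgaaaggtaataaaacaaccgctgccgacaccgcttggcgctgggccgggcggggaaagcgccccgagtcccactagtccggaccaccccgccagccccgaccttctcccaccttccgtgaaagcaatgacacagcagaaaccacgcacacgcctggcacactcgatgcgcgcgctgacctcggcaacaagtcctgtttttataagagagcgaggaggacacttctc
T start 2, chr6:166167852-166168101, minus strand: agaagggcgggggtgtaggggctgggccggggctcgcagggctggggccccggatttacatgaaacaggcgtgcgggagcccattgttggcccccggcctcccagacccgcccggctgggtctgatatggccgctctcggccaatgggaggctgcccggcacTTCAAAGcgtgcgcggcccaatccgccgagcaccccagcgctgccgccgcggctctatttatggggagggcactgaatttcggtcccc
MIXL1, chr1:226223414-226223663, plus strand: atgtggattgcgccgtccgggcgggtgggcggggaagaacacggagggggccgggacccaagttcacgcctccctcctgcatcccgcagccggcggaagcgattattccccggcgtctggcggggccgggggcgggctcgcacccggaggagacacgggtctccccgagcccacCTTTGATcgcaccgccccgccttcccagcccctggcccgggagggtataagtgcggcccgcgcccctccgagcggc
HAND1, chr5:154478228-154478477, minus strand: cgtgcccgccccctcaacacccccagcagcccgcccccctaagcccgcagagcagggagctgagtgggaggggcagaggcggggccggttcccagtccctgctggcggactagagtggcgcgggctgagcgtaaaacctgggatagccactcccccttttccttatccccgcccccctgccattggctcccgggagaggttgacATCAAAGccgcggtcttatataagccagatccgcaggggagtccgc

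The match lay 88 to 82 bases before start 2 of T (TTCAAAG on the gene's strand), 76 to 70 bases before the start of MIXL1 (CTTTGAT) and 46 to 40 bases before that of HAND1 (ATCAAAG). The promoter windows of EOMES and GATA6 held none of these letters. SOX17 and GATA4 had no promoter entry. Thus 3 of the 6 promoter windows of 5 members held a match, against 5.94% of all 35116 promoter windows of the same 250 bases. A match is a run of letters and not evidence of binding. Observed over expected CpG, a measure of CpG islands, ranged over these 6 windows between 0.571 at HAND1 and 1.03 at start 1 of T, against a median of 0.558 over all promoter windows. All 6 were thus above the median, although HAND1 only barely.

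Where a peak lay relative to a gene was estimated. Each window was 20.0 to 21.2 kb longer than the RefSeq length of its gene, so the gene was taken to sit at the centre of its window. No hg19 annotation was used, so these starts are approximate. Positions are given in kb from the low-coordinate edge of the window.

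H3K27me3 lay at all 7 genes in both cultures, and at 6 of them as a wide domain. Peaks covered 86.6% of the SOX17 window in Boost-Chir against 89.9% in Low-Chir, and 89.95% of the HAND1 window in Boost-Chir against 86.3% in Low-Chir. At GATA4 they covered 66.9 kb in Boost-Chir against 69.2 kb in Low-Chir, from just before the estimated start into the later part of the gene. GATA6 had 20.35 kb in Boost-Chir against 20.4 kb in Low-Chir, on both sides of the estimated start at 10.5 kb, which itself fell in a gap between peaks in both conditions, with no peak beyond 24.2 kb of its 54 kb window. EOMES had 16.3 kb in Boost-Chir against 20.3 kb in Low-Chir, and T had 8.84 kb in Boost-Chir against 11.1 kb in Low-Chir. MIXL1 stood apart with 1485 bp in Boost-Chir against 1601 bp in Low-Chir, in 4 short peaks each.

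**Figure D1:**
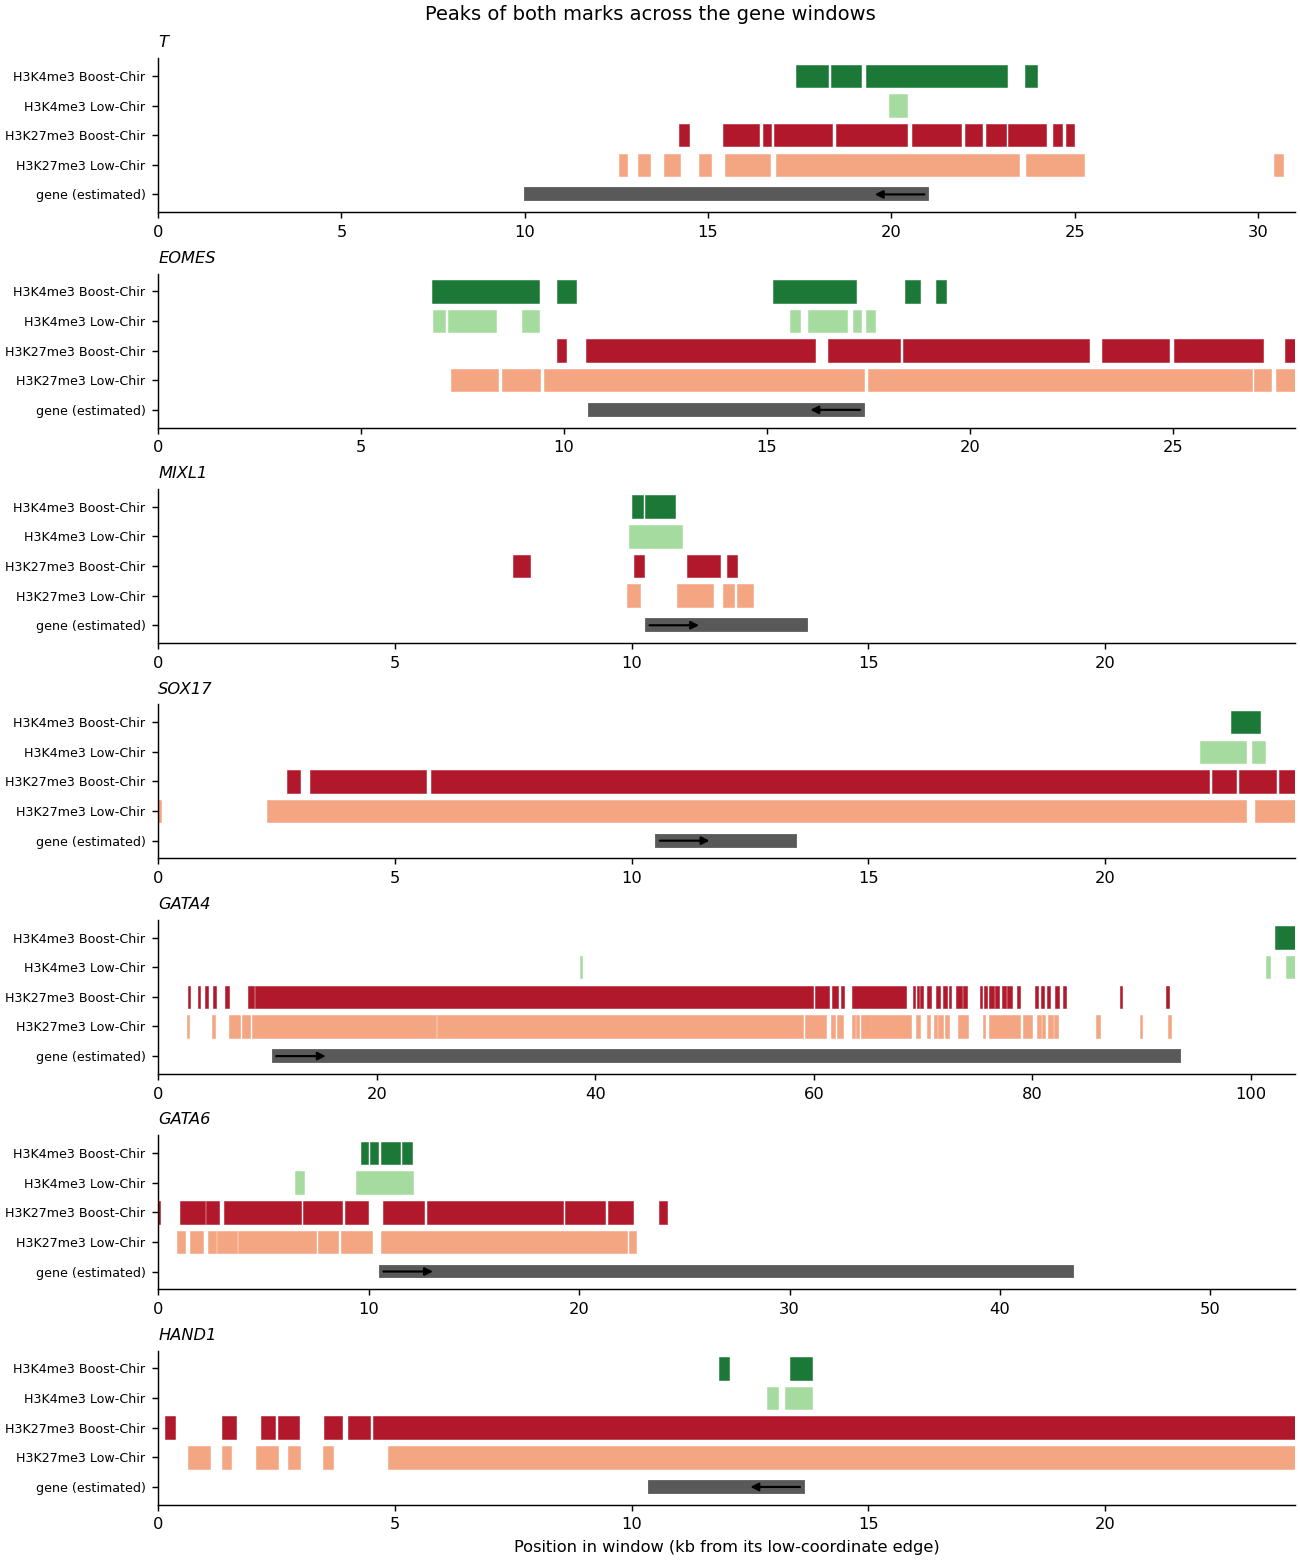
Peaks of H3K4me3 (green) and H3K27me3 (red) in the 7 gene windows, each drawn to its own scale in kb from its low-coordinate edge, with Boost-Chir above Low-Chir. Grey bars are the estimated gene positions and arrows their direction; H3K27me3 peaks lie within 2 kb of all 7 estimated starts, and H3K4me3 peaks lie that near at every gene but SOX17 and GATA4.

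For scale, neighbouring peaks of the 2 lists of a mark, up to 3 kb apart, were joined over the whole genome into loci, and the locus with most bases in a window was taken as that gene's main locus. Among 7868 H3K27me3 loci, the GATA4 locus, on chromosome 8 at 11526654 to 11616647, ranked 12 by covered length in Boost-Chir against 16 in Low-Chir. The HAND1 locus, on chromosome 5 at 153843114 to 153878858, ranked 72 in Boost-Chir against 89 in Low-Chir. SOX17 ranked 110 in Boost-Chir against 106 in Low-Chir, and GATA6 ranked 137 in Boost-Chir against 156 in Low-Chir. EOMES ranked 185 in Boost-Chir against 147 in Low-Chir, and T ranked 418 in Boost-Chir against 378 in Low-Chir. MIXL1 ranked 2636 in Boost-Chir against 2751 in Low-Chir. The 6 wide domains were thus among the longest of the genome in these cells, whereas that of MIXL1 was a short locus. In genome windows of 28 kb, the median length of the members' windows, that held both marks in both conditions, H3K27me3 covered a median of 2.21 kb in Boost-Chir against 2.46 kb in Low-Chir (n = 3237). Over the 7 members the medians were 20.35 kb in Boost-Chir against 20.4 kb in Low-Chir. Member windows range between 24 and 104 kb, so the lengths are not strictly alike.

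The extent of H3K27me3 differed less than 1.5 times between the cultures in each window. A difference was counted when the covered length differed at least 1.5 times. By that measure 0 of the 7 windows were longer and 0 were shorter in Boost-Chir, against 14.0% longer and 23.7% shorter among the 3237 genome windows with both marks. Among the 1114 loci with at least 5 kb in 1 condition, 5.12% were longer and 15.6% shorter. With only 7 windows, counts of 0 are not far from the shares of those loci. The genome windows held much less H3K27me3 than the members, by the medians above, so their shares are not strictly alike. The lengths were nominally shorter in Boost-Chir at 6 windows and longer at HAND1, which had 21.6 kb in Boost-Chir against 20.7 kb in Low-Chir. The ratio of Boost-Chir over Low-Chir was lowest at T (0.799) and EOMES (0.802) and lay between 0.928 and 1.04 at the other 5, with a median of 0.963 over the 7. Over all 4499 H3K27me3 loci found in both lists the median was 0.917, so shorter in Boost-Chir was the more common direction there too. The share of those loci shorter by any length was not counted. Among the wide domains, the share of Low-Chir bases also covered in Boost-Chir was lowest at T and EOMES. A shorter Boost-Chir length by itself lowers that share. At EOMES 16139 of 16294 Boost-Chir bases lay under H3K27me3 in Low-Chir too, and at T 8305 of 8837. Of the bases under H3K27me3 in Low-Chir, 75.1% at T and 79.4% at EOMES were also covered in Boost-Chir, against 95.4% at SOX17, 89.8% at GATA4, 93.2% at GATA6 and 96.9% at HAND1. At MIXL1 the share was 51.5%.

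**Figure D2:**
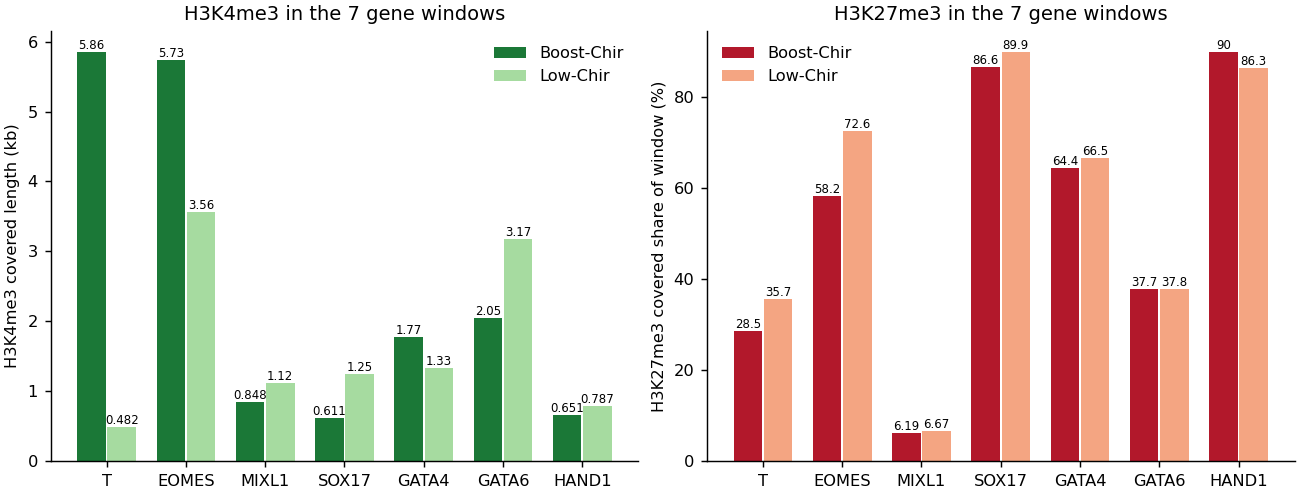
Length under H3K4me3 peaks in kb (left) and share of the window under H3K27me3 peaks in percent (right) for each gene, Boost-Chir left of Low-Chir, 1 library per bar and so no error bars. T has 5.86 kb of H3K4me3 in Boost-Chir against 0.482 kb in Low-Chir, while H3K27me3 shares are close at 5 genes and lower in Boost-Chir at T and EOMES.

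The height of H3K27me3 was read at the highest peak of each window. The authors' fold enrichment over the local background at SOX17 was 10.1 in Boost-Chir against 12.3 in Low-Chir, and the Low-Chir value, the highest of the 7 genes in that condition, was at or above 99.97% of its list. HAND1 had 10.2 in Boost-Chir, the highest of the 7 there, against 6.07 in Low-Chir. That order turned in the reads: 43 reads lay at the summit in Boost-Chir against 59 in Low-Chir, over a local background of 3.28 reads in Boost-Chir against 8.81 in Low-Chir. For this reason the reads above background were divided by the genome-wide background of their list, which is proportional to depth. This enrichment per unit of depth was lower in Boost-Chir at 6 genes, with ratios between 0.741 at EOMES and 0.923 at GATA6, and higher at MIXL1 (1.19). The median ratio over 4499 loci was 0.920, with 25th and 75th percentiles of 0.807 and 1.05. EOMES, SOX17 (0.795) and T (0.799) lay below that range, MIXL1 above it, and GATA4, GATA6 and HAND1 within it. All 7 lay between the 5th and 95th percentiles, 0.654 and 1.30. At EOMES, the lowest, 35 reads (95% interval 24.4 to 48.7) stood at the summit in Boost-Chir against 47 (34.5 to 62.5) in Low-Chir. These are exact Poisson intervals, which cover counting error only, and the 2 overlap. Likewise T had 30 reads (20.2 to 42.8) in Boost-Chir against 38 (26.9 to 52.2) in Low-Chir.

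H3K4me3 covered 0.611 to 5.86 kb of each window in Boost-Chir against 0.482 to 3.56 kb in Low-Chir, and T was the longest of the 7 in Boost-Chir and the shortest in Low-Chir. At T, a domain of 5.86 kb in 4 peaks lay over the estimated start in Boost-Chir, against a single peak of 0.482 kb in Low-Chir. RefSeq lists a long non-coding RNA (lncRNA) gene, LNCDAT, that overlaps T, and the peaks were not divided between these genes. The main Boost-Chir peak ran over 3.83 kb on chromosome 6, at 166580321 to 166584154, with a fold enrichment of 6.73 and a −log10 q of 15.8. The Low-Chir peak, at 166580943 to 166581424, had a fold of 3.37 and a −log10 q of 2.61, at or above 7.51% of its list by fold. There were 30 reads (20.2 to 42.8) at the summit in Boost-Chir against 10 (4.80 to 18.4) in Low-Chir, over backgrounds of 3.61 reads in Boost-Chir against 2.26 in Low-Chir. The length differed 12.2-fold and the enrichment per unit of depth 2.82-fold. The whole Low-Chir peak lay inside the Boost-Chir domain. The summits lay apart, at 22.34 kb in Boost-Chir against 20.25 kb in Low-Chir, on either side of the estimated start at 21 kb. The enrichment ratio therefore compares different positions of the domain.

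**Figure D3:**
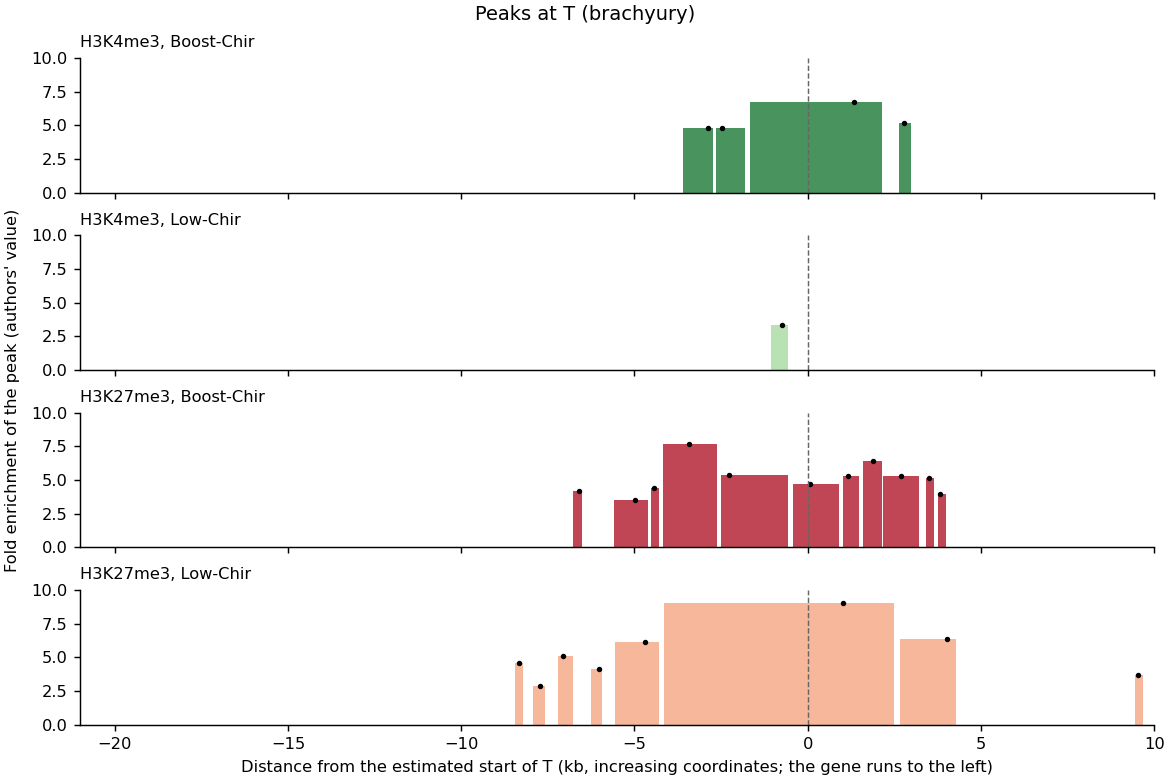
Peaks at T by distance from its estimated start in kb (the gene runs to the left), with bar height the authors' fold enrichment and dots the summits, in the order H3K4me3 Boost-Chir, H3K4me3 Low-Chir, H3K27me3 Boost-Chir and H3K27me3 Low-Chir. H3K4me3 covers 5.86 kb in Boost-Chir against 0.482 kb in Low-Chir, and both lie within H3K27me3 domains of 8.84 kb in Boost-Chir against 10.83 kb in Low-Chir.

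Among all 16580 H3K4me3 loci, T ranked 52 by the length gained in Boost-Chir (5.37 kb). Among the 14475 loci found in both lists it ranked 8 by the ratio of enrichment per unit of depth. The median of that ratio was 1.09 and its 95th percentile 1.503. A short Low-Chir peak makes a high ratio easier to reach. Of the 722 loci whose Low-Chir length was within 0.1 kb of that of T, the median Boost-Chir length was 0.572 kb, and 3, T included, were at least as long as T in Boost-Chir.

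Within the same window H3K27me3 at T was nominally lower in Boost-Chir, but it stayed over the start. Its longest peak was 1.93 kb in Boost-Chir against 6.64 kb in Low-Chir, and the domain around the start held 8.84 kb in 11 peaks in Boost-Chir against 10.83 kb in 7 peaks in Low-Chir. The remaining H3K27me3 of the Low-Chir window, 230 bp, was a separate peak at 30.4 kb. Within 2 kb of the estimated start, H3K27me3 covered 91.1% of the bases in Boost-Chir against 100% in Low-Chir, and H3K4me3 96.5% in Boost-Chir against 12.1% in Low-Chir. Of the bases under H3K4me3, 91.7% also lay under H3K27me3 in Boost-Chir, and all 482 did in Low-Chir. Peaks of both marks in a bulk culture do not show that both sit in the same cells, and a mark on more cells and more mark per cell cannot be told apart.

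EOMES, the other T-box gene, also had more bases under H3K4me3 in Boost-Chir, by less. Peaks covered 5.73 kb in Boost-Chir against 3.56 kb in Low-Chir, a ratio of 1.61. They formed 2 loci. One, around the estimated start at 17.4 kb, had 2.64 kb in Boost-Chir against 1.65 kb in Low-Chir. The other, between 6.75 and 10.3 kb on the far side of the gene, had 3098 bp in Boost-Chir against 1916 bp in Low-Chir, and RefSeq places the lncRNA gene LINC02084 on that side of EOMES. The extension at EOMES was common: 31.7% of all H3K4me3 loci were at least 1.5 times longer in Boost-Chir, and the median ratio over loci in both lists was 1.28. The highest fold of the window lay at the far-side locus and differed little, at 6.17 in Boost-Chir against 6.03 in Low-Chir. Within 2 kb of the estimated start the highest fold was 3.66 in Boost-Chir against 5.52 in Low-Chir. The ratio of enrichment per unit of depth was 1.05 at the locus around the start and 1.24 at the far-side locus. At the far-side locus the H3K27me3 domain reached down to 9.82 kb in Boost-Chir, against 7.21 kb in Low-Chir. Over both loci together, 44.0% of the H3K4me3 bases lay under H3K27me3 in Boost-Chir against 87.7% in Low-Chir. That share does not separate the start from the far side. Within 2 kb of the estimated start, H3K27me3 covered 89.9% of the bases in Boost-Chir against 97.55% in Low-Chir.

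MIXL1, SOX17, GATA6 and HAND1 had fewer bases under H3K4me3 in Boost-Chir than in Low-Chir. The median ratio over loci found in both lists was 1.28, and the share of loci shorter by any length was not counted. The SOX17 bases lay past the estimated end of that gene. MIXL1 had 0.848 kb in Boost-Chir against 1.12 kb in Low-Chir, in a narrow block over its estimated start. Its highest fold was 4.90 in Boost-Chir against 7.49 in Low-Chir, with 17 reads (9.90 to 27.2) in Boost-Chir against 24 (15.4 to 35.7) in Low-Chir. The ratio of enrichment per unit of depth, 0.547, ranked 122 from the lowest among 14475 loci, although the 2 intervals overlap. GATA6 had 2.05 kb in Boost-Chir against 3.17 kb in Low-Chir, a ratio of 0.645, in 4 peaks in Boost-Chir against 2 in Low-Chir. Its highest fold was 7.11 in Boost-Chir against 6.58 in Low-Chir, so the extent and the height did not move together. RefSeq places the lncRNA gene GATA6-AS1 on the low-coordinate side of GATA6, and the peaks were not divided between these genes. With the top 50% of each list, or with 1 common minimum of −log10 q, GATA6 had 0.886 kb in Boost-Chir against 2.74 kb in Low-Chir, a ratio of 0.324. With that common minimum MIXL1 had none in Boost-Chir against 1.12 kb in Low-Chir. HAND1 had 0.651 kb in Boost-Chir against 0.787 kb in Low-Chir, at folds of 3.84 in Boost-Chir against 3.64 in Low-Chir, with 14 reads at the summit in each. Both conditions had none at HAND1 under either of the 2 stricter settings, and with the same number of peaks in each list it had 0.451 kb in Boost-Chir against 0.787 kb in Low-Chir. All of the H3K4me3 at HAND1 lay under its H3K27me3 domain in both conditions.

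SOX17 and GATA4 had no H3K4me3 peak within 2 kb of their estimated start in either condition. The H3K4me3 in the SOX17 window, 611 bp in Boost-Chir against 1246 bp in Low-Chir, lay beyond 21 kb, past the estimated end of the gene at 13.5 kb. The H3K4me3 in the GATA4 window lay at its far edge, beyond 101 kb, apart from 1 peak of 0.209 kb within the gene in Low-Chir with a fold of 3.11. The edge peak was the highest H3K4me3 peak of the group, with a fold of 12.5 in Boost-Chir against 10.6 in Low-Chir, and it ran past the window. The estimated end of GATA4 is at 93.5 kb, and NEIL2, which encodes a DNA glycosylase, is the next protein-coding gene on that side in RefSeq. These window values are therefore not measures of the starts of SOX17 and GATA4. The remaining 5 genes had H3K4me3 within 2 kb of the estimated start in both conditions, and all 7 had H3K27me3 there in both.

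**Figure D4:**
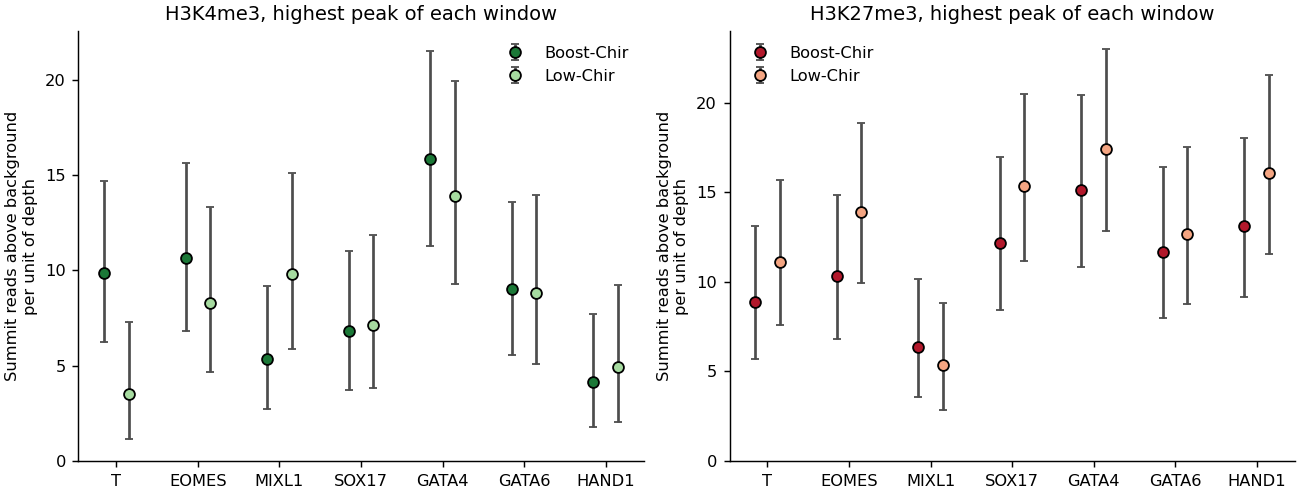
Reads above background at the highest peak by fold of each window, divided by the genome-wide background reads of the list, for H3K4me3 (left) and H3K27me3 (right), Boost-Chir left of Low-Chir. Bars are exact 95% Poisson intervals of the summit reads (counting error only); T H3K4me3 has 9.87 in Boost-Chir against 3.50 in Low-Chir, and the intervals of the 2 conditions overlap at every gene for both marks.

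Counted over the 7 windows, H3K4me3 was at least 1.5 times longer in Boost-Chir at 2 (T and EOMES) and at least 1.5 times shorter at 2 (SOX17 and GATA6). Among the 3237 genome windows with both marks, 24.1% were longer and 8.90% shorter by that measure, so the number of longer windows was near the background. Whether the number of shorter windows differs from its share was not tested. The SOX17 peaks lay past the estimated end of that gene. Within 2 kb of its estimated start GATA6 had a ratio of 0.748, short of the limit. Over the main loci, which for EOMES is the far-side one, the counts were also 2 and 2, against 31.7% and 8.06% of all 16580 loci. The median ratio of Boost-Chir over Low-Chir was 0.827 over the 7 member windows and 1.17 (n = 3237) over the genome windows. The sums over the 7 windows, 17.5 kb in Boost-Chir against 11.7 kb in Low-Chir, differ in the other direction, and T holds 5.37 kb of that gap. The H3K4me3 library of Boost-Chir was 1.21 times as deep as that of Low-Chir and the H3K27me3 library 0.971 times. The part of depth in these lengths was not tested.

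**Figure D5:**
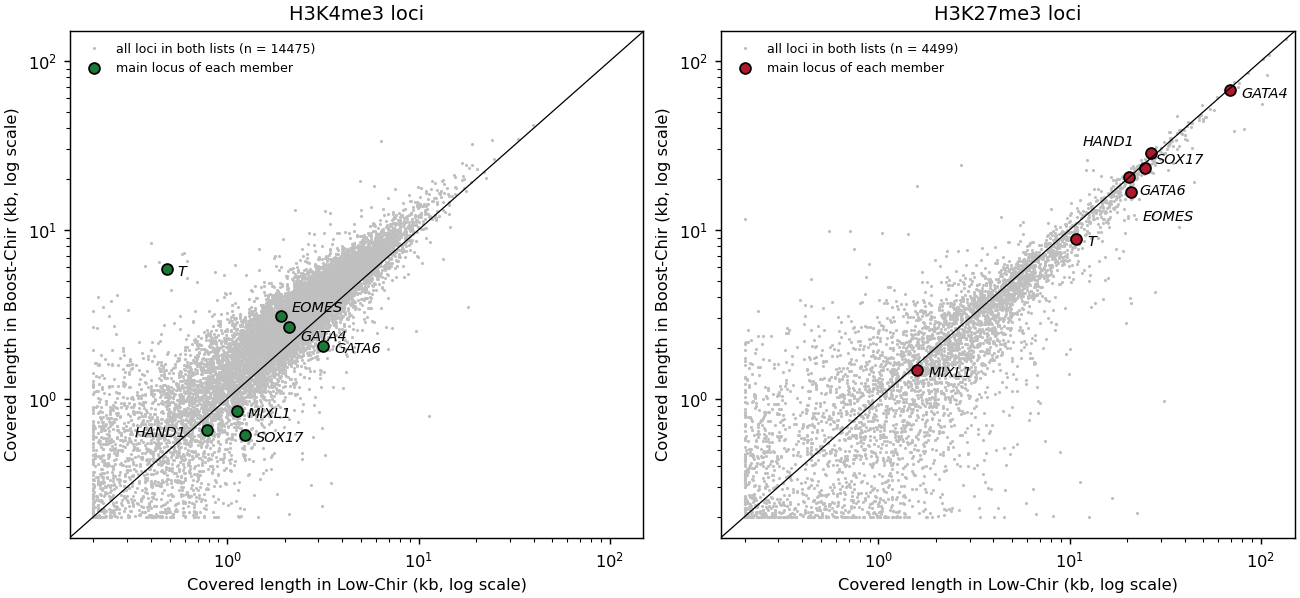
Covered length in Boost-Chir against Low-Chir (kb, log axes) for every locus found in both lists (grey) and the main locus of each gene (coloured), for H3K4me3 (left, 14475 loci) and H3K27me3 (right, 4499 loci), with the line of equal length. T lies far above the line for H3K4me3, at 5.86 kb in Boost-Chir against 0.482 kb in Low-Chir, and the H3K27me3 loci of all 7 genes lie near the line.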

How the data were processed

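ChIP-seq peaks of H3K4me3 and H3K27me3 were compared between 2 cultures, with samples grouped by title. The tools named for the reads are cutadapt 1.6, BWA 0.7.12 and Picard, and the build is hg19, per the submitters' processing notes. The peak caller is not given in the sources used here. As the peak names show in the deposited lists, each antibody library was called against the input of its own condition, without pooling. The 2 inputs were not analysed here. The deposited lists give each peak a fold (a ratio over local background), a −log10 p and a −log10 q, and a score equal to the −log10 q rescaled, which was not used.

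The 7 windows were read from the rule. The genes and windows were chosen with earlier results of these data known, and all 7 genes are named. Length was counted inside the window. Loci joined peaks of both conditions within 3 kb. Reads at a summit and its background were solved from fold and p, assuming fold = (reads + 1) / (background + 1), with reads scaled by a constant per list for H3K27me3, and a Poisson tail. In every list, 100% of peaks gave back their deposited −log10 p to within 0.001. The genome-wide background, proportional to depth, was 2.67 reads in Boost-Chir and 2.21 in Low-Chir for H3K4me3, and, for H3K27me3, 3.03 in Boost-Chir against 3.12 in Low-Chir. The code was tested on simulated data. RefSeq tables on GRCh38.p14 gave gene lengths, strands, neighbours and promoter sequences by symbol, for 5 of 7 genes in the case of promoters, and the strands of SOX17 and GATA4 came from general knowledge. Coordinates count from 1. Python 3.11.15, numpy 2.4.6, scipy 1.17.1, pandas 2.3.3 and matplotlib 3.10.9 were used.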

Additional observations from a re-analysis of the deposited data

How the results depend on the processing

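With 1 library per mark and condition, no difference has a replicate check, and lengths depend on where the caller's threshold falls. No paired analysis was possible because there is only 1 library per mark in a condition. At T, H3K4me3 was 5.86 kb in Boost-Chir under all 7 alternatives for peaks and windows, and in Low-Chir it was 0.482 kb, or 0 with the top 50% of each list or with 1 common minimum of −log10 q. The EOMES ratio of 1.61 was 1.253 with that common minimum and 1.51 without the peaks whose summit would not pass at the depth of the shallower library (peak edges stay as called, so that setting is not equal depth). With the common minimum, 1 window (MIXL1) had H3K27me3 at least 1.5 times shorter in Boost-Chir, in place of 0. By reads above background per unit of depth, the highest H3K27me3 peak was higher in Boost-Chir at 1 gene, in place of 4 by fold. Main H3K4me3 loci shorter in Boost-Chir numbered 1 when joined within 1 kb, in place of 2. With a limit of 2-fold, 1 was longer and 1 shorter, and with the smaller planned limit 1 H3K27me3 locus was shorter, in place of 0. Both marks overlapped at 6 windows in Boost-Chir and 7 in Low-Chir. The other 66 alternative values of the summary counts stayed within 1.5 times of those reported. The calls per window stayed in 89 alternatives and moved in 9, so an equal count can hold other genes. H3K4me3 at GATA4 was longer with the common minimum or the top 50% of each list, at 1.96 in each. With peaks counted past the window edge it was 1.61. With the common minimum the 2 longer windows were T and GATA4, without EOMES. In windows narrowed by 5 kb, SOX17 had no H3K4me3, and GATA4 had none in Boost-Chir against 209 bp in Low-Chir. The distances of 1 and 4 kb from the start were chosen after seeing the data.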
